A study of Oryza sativa with 12 samples.

Results

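The heat stress (HS) response of 93-11 seedlings was set against that of Nip seedlings, gene by gene. 93-11 is an Indica cultivar of rice and Nip (Nipponbare) a Japonica cultivar. The quantity reported is a difference of differences on the log2(FPKM + 1) scale, namely 93-11 HS less 93-11 normal, less the same step in Nip. A positive difference means that a transcript rose more, or fell less, in 93-11. The identifiers compared were the LOC_Os identifiers listed for both cultivars that reached 1 FPKM or more in 3 or more of the 12 libraries. These were 19296 of the 33780 identifiers listed for either cultivar. A further 4103 shared LOC_Os identifiers fell below this filter, 4725 were listed for 93-11 only and 3483 for Nip only. The question was which functions respond more in one cultivar. No source used here pairs LOC_Os identifiers with gene names or functions, except for LOC_Os02g35500, which the study names as a glyoxylate reductase. The identifiers were therefore grouped by the shape of their response, and no function is given for any other identifier.

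Poly(A) RNA of seedlings aged 3 weeks, taken above the root, was sequenced in 4 groups of 3 libraries: 93-11 HS, 93-11 normal, Nip HS and Nip normal. All seedlings were grown under short days with a light of 800 μmol m-2 s-1. HS seedlings of both cultivars were held for 36 h at 45 °C, in humid air and under 60–80 μmol m-2 s-1 of light. No normal seedlings were described at the light and humidity of HS, so that heat, dim light and humidity cannot be told apart within either cultivar. The methods of the study state neither the light cycle during HS nor the time of day at harvest. Nothing in the labels says whether the 3 libraries of a group come from separate plants, although the study calls them biological replicates. Each group is 1 cultivar line sampled at 1 time.

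Plants meet high temperature with heat shock transcription factors, which switch on chaperones that keep other proteins from aggregating, while much of the transcription for growth and photosynthesis is lowered. Dim light by itself also changes transcripts of photosynthesis and limits the sugar that a leaf can make. Cultivars can differ in such a response through transcripts that change in only one of them, through unequal steps in both, or through levels that already differ in normal growth.

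FPKM is the number of fragments per kilobase of a gene, scaled to the mapped reads of the library. The sum of FPKM over all listed identifiers was 794246 to 810922 in 93-11 HS and 582896 to 617044 in 93-11 normal libraries, against 552167 to 561203 in Nip HS and 785851 to 798491 in Nip normal libraries. The sum was thus higher upon HS in 93-11 and lower upon HS in Nip, with no overlap between HS and normal libraries of a cultivar. Between replicates of a group, log2(FPKM + 1) had a median SD of 0.0970 in 93-11 HS, 0.0861 in 93-11 normal, 0.0739 in Nip HS and 0.0843 in Nip normal libraries. Pearson's r between replicates, across genes and so not over independent points, was at least 0.991 in every group. No read counts were used, so no counting error is given.

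Many of the shared transcripts responded differently to HS in the 2 cultivars. A difference of at least 1 in size with an adjusted p under 0.01 (limma interaction term over 12 libraries, Benjamini-Hochberg adjustment) was called for 7811 of 19296 identifiers, which is 40.5%. The difference was positive for 4023 (20.8%) and negative for 3788 (19.6%). Without a minimum size, 13678 identifiers (70.9%) passed. The quartiles of the difference were -0.79 and 0.83, its 5th and 95th percentiles -2.14 and 2.30, and its median 0.03. The median standard error of a difference was 0.13. Among called identifiers, 1292 had a positive difference of at least 2 and 1137 a negative one of that size. At a size of at least 4 there were 162 positive and 78 negative calls.

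The direction of the calls depended on how the libraries were scaled. The main values were used as deposited. With each library rescaled to a sum of 1000000, 1764 differences were positive and 8075 negative. The median ratio gave 3159 positive and 4723 negative calls (40.1% positive, against 51.5% as deposited), and quantile normalization 3462 and 3514 (49.6% positive). The rescaling to 1000000 moved the median difference of all identifiers by -0.80, the median ratio by -0.21 and quantile normalization by -0.03. Counted from the median of each scaling, the split was near even throughout. As deposited, 3951 identifiers lay at least 1 above the median and 3991 at least 1 below it. These numbers were 4063 and 4153 after the rescaling, 3922 and 3983 with the median ratio, and 3496 and 3599 with quantile normalization. Counting from the median puts equal numbers on either side of it. A near-even split is thus largely built in and does not say which direction prevailed. The tails moved as well: at a size of at least 4, 96 calls were positive and 320 negative after the rescaling, 142 and 115 with the median ratio, and 129 and 105 with quantile normalization. No identifier called with the values as deposited was called in the other direction under these 3 scalings. The shifts of the median were smaller than the step from a positive to a negative call, so a reversal was unlikely from the start. In all 4 scalings, 1744 identifiers were called positive (43.4% of the positive calls as deposited) and 3038 negative (80.2%). The lower positive share came mostly with the rescaling to 1000000, which kept 1763 positive and 3788 negative calls. Quantile normalization kept 3020 and 3038, and the median ratio 3157 and 3787. The 2 shares thus do not say that negative calls were the firmer ones.

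**Figure D1:**
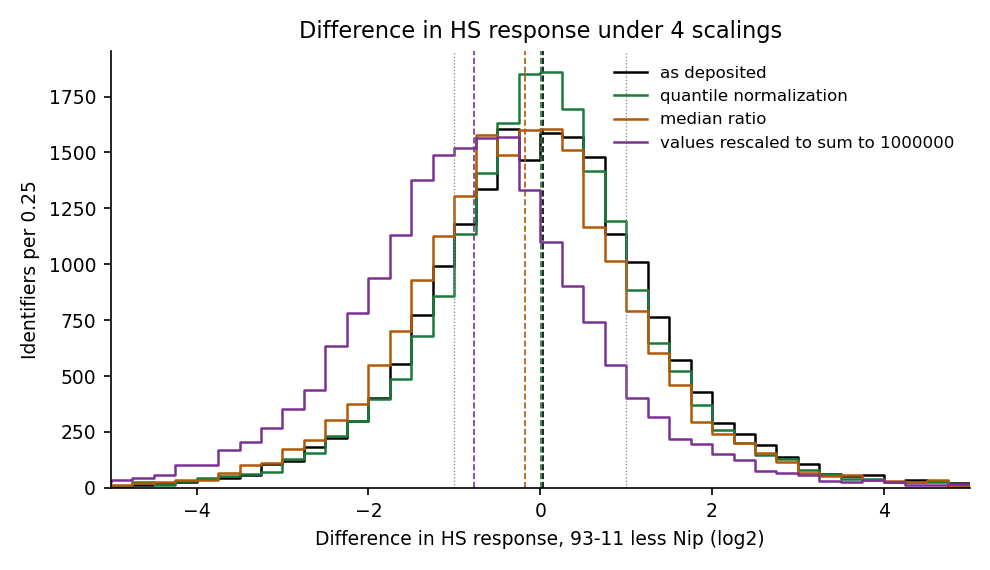
Histogram of the difference in HS response (93-11 less Nip, log2 scale, x axis) over 19296 identifiers under 4 scalings, in identifiers per bin of 0.25 (y axis); dashed lines mark the medians and dotted lines a difference of 1 in size. The curve for values rescaled to a sum of 1000000 is displaced to the left, with a median of -0.77, against 0.03 for the values as deposited.

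The response was wider in 93-11 than in Nip. The SD of the log2 fold change of HS over normal across identifiers was 1.63 in 93-11 and 1.08 in Nip, and it was larger in 93-11 under each of the 3 other scalings too (1.56 to 1.71 in 93-11, 1.06 to 1.15 in Nip). The 5th and 95th percentiles of the log2 fold change were -2.98 and 2.27 in 93-11, and -2.04 and 1.27 in Nip. In the same fit, at the same thresholds (limma, Benjamini-Hochberg adjustment), 3937 of these identifiers were upregulated (20.4%) and 5117 downregulated (26.5%) in 93-11, against 1615 (8.37%) and 3386 (17.5%) in Nip. In either direction these were 9054 identifiers (46.9%) in 93-11 and 5001 (25.9%) in Nip.

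**Figure D2:**
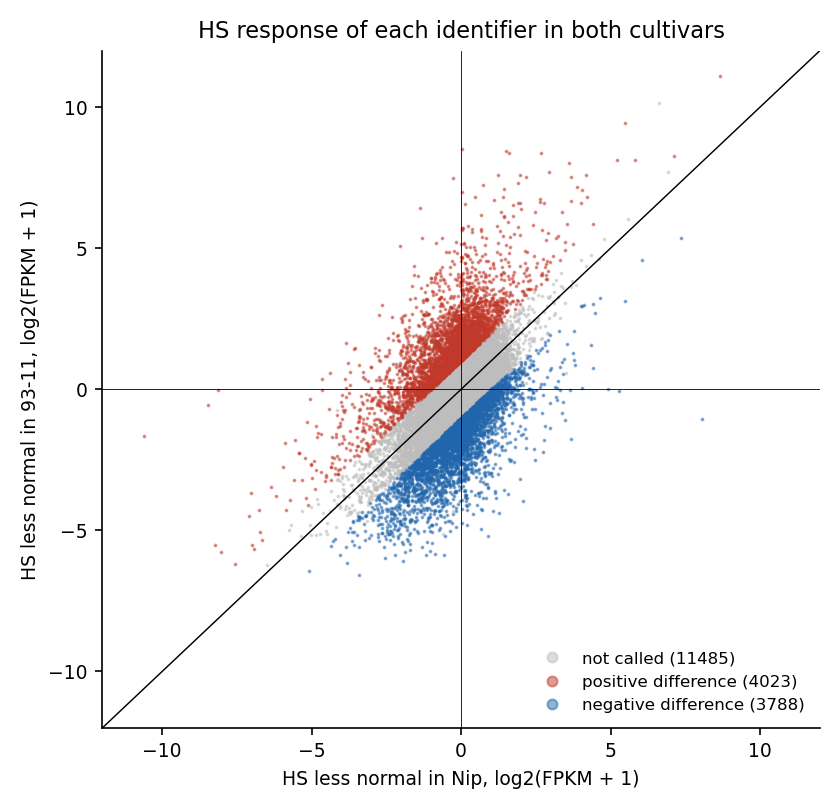
Log2 fold change of HS over normal, on the log2(FPKM + 1) scale, in 93-11 (y axis) and in Nip (x axis) for each of 19296 identifiers; the diagonal marks equal responses. The 4023 identifiers with a positive difference lie above the diagonal and the 3788 with a negative difference below it, with more spread along the 93-11 axis (SD 1.63) than along the Nip axis (SD 1.08).

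Most called differences belonged to transcripts that were called in 93-11 and not in Nip. Of the 4023 positive differences, 2194 (54.5%) were upregulated in 93-11 and not called in Nip, with a median log2 fold change of 1.74 in 93-11 and 0.05 in Nip. Another 618 (15.4%) were downregulated in Nip and not called in 93-11, with medians of 0.03 in 93-11 and -1.64 in Nip. Both cultivars were upregulated for 256, at medians of 3.48 in 93-11 and 1.45 in Nip, and both were downregulated for 161, where the fall was the smaller one in 93-11 (-1.71 in 93-11 and -3.46 in Nip). For 195 the cultivars moved in opposite directions, up in 93-11 and down in Nip. The remaining 599 were called in neither cultivar alone, with medians of 0.75 in 93-11 and -0.56 in Nip. The calls within each cultivar and the call of the difference rest on the same libraries, so these counts describe the calls and are not separate evidence for them.

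The negative differences showed the mirror image, with a larger shared part. Of 3788 identifiers, 1984 (52.4%) were downregulated in 93-11 and not called in Nip, with medians of -1.91 in 93-11 and -0.16 in Nip. A steeper fall in 93-11 accounted for 775 (20.5%) that were downregulated in both cultivars, at medians of -3.33 in 93-11 and -1.54 in Nip. Upregulation in Nip without a call in 93-11 was found for 430, with medians of -0.06 in 93-11 and 1.40 in Nip. Opposite directions, down in 93-11 and up in Nip, were found for 87, and a smaller rise in 93-11 for 29. The other 483 were called in neither cultivar alone.

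**Figure D3:**
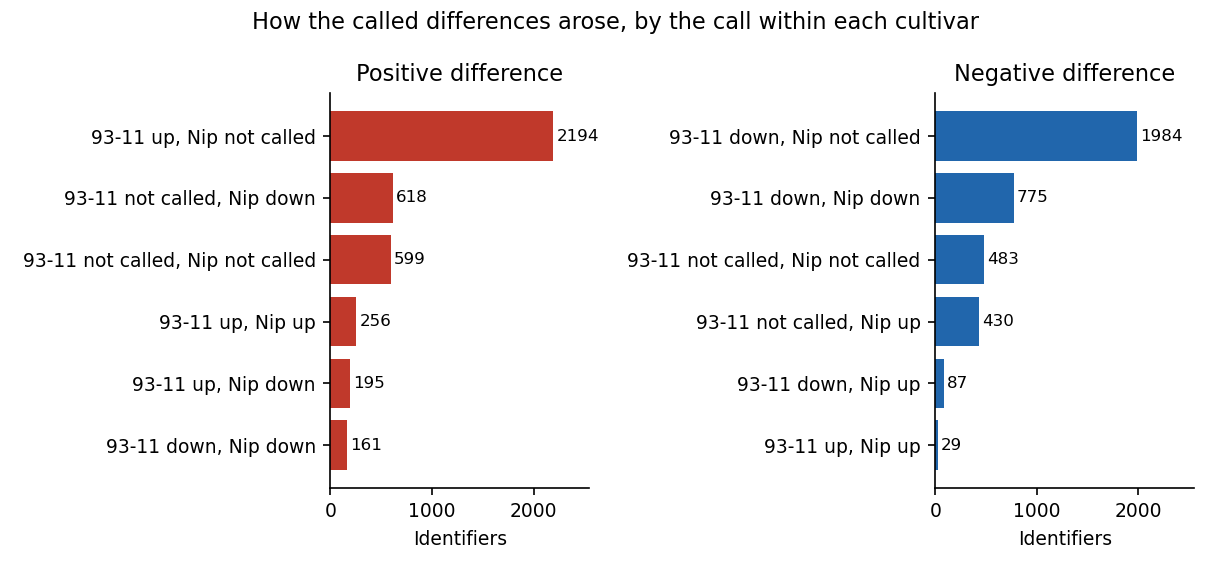
Number of identifiers (x axis) with a positive (left panel) or negative (right panel) difference in HS response, by whether they were upregulated, downregulated or not called within 93-11 and within Nip (y axis). The longest bars are those called in 93-11 and not in Nip, 2194 upregulated and 1984 downregulated.

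A call in 93-11 alone did not by itself mean that the responses differed. Of the 2978 identifiers upregulated in 93-11 and not called in Nip, 73.7% also passed the test of the difference, and of the 2805 downregulated in 93-11 only it was 70.7%. Where both cultivars were called the same way, the difference was called for 37.3% of the 764 that were upregulated and 42.1% of the 2225 that were downregulated. It was called for 56.3% of the 764 upregulated in Nip and not called in 93-11 and for 64.0% of the 966 downregulated in Nip only. Over all identifiers tested it was 40.5%. Where both cultivars were upregulated and the difference was called, the rise was the larger one in 93-11 in 256 of 285 cases, and where both were downregulated the fall was the larger one in 93-11 in 775 of 936. With only the identifiers whose difference was called under all 4 scalings, these numbers were 115 of 142 and 674 of 742. The calls within each cultivar were kept as deposited here and were not made anew under the other scalings. Among these identifiers, the largest classes were those called in 93-11 and not in Nip. There were 1017 up (medians of 2.28 in 93-11 and -0.07 in Nip) and 1723 down (medians of -2.03 in 93-11 and -0.13 in Nip).

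The cultivars stood further apart upon HS than in normal growth. The level of 93-11 and that of Nip were at least 1 apart on the log2 scale for 8401 identifiers (43.5%) upon HS, against 3899 (20.2%) in normal libraries, and the SD of this gap was 1.50 upon HS and 1.01 in normal growth. Its median was close to the same in both conditions, -0.28 upon HS and -0.30 in normal growth, with 93-11 as the lower one. The gap was taken on FPKM as deposited and under no other scaling, so its counts and medians hold for these values only. Of the 7811 identifiers with a called difference, 4492 (57.5%) had a gap under 1 in normal growth that reached 1 upon HS. For 949 (12.1%) a gap of at least 1 in normal growth fell under 1 upon HS. A gap of at least 1 changed sides for 309, and for 633 it stayed on its side. The gap upon HS less the gap in normal growth is the difference itself, so these shares are a description and carry no test.

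Transcripts near silence in 3 groups and present in 1 were found mainly for 93-11 HS. Mean FPKM was under 1 in the other 3 groups and at least 10 in 93-11 HS for 47 identifiers, with a median of 18.7 and a highest level of 290.6 FPKM. The same shape held for 2 identifiers in 93-11 normal, 6 in Nip HS and 7 in Nip normal. The reverse shape, a mean FPKM under 1 in 1 group and at least 10 in the other 3, was found for 55 identifiers in 93-11 HS, 3 in 93-11 normal, 2 in Nip HS and 2 in Nip normal. The first shape by itself sets a large difference on the log2 scale. The reverse shape does not, as a step in the other cultivar can offset it. Of the reverse shapes, a difference was called for 51 of 55 in 93-11 HS and 2 of 3 in 93-11 normal. It was called for 1 of 2 in Nip HS and 1 of 2 in Nip normal. The first can pass the filter through 1 group alone, so the counts are a description. They rest on FPKM as deposited and were not made under another scaling. Identifiers at 1 FPKM or more numbered 15422 to 15434 in 93-11 HS and 17128 to 17149 in 93-11 normal libraries. In Nip they numbered 16980 to 17032 in HS and 17402 to 17477 in normal libraries.

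The identifiers with a called difference carried very different parts of the transcript pool in the 4 groups. The 4023 with a positive difference held 62.1% to 62.5% of the FPKM sum of all 19296 identifiers in 93-11 HS libraries and 18.8% to 19.0% in 93-11 normal libraries, against 23.0% to 23.1% in Nip HS and 23.6% to 23.8% in Nip normal libraries. The 3788 with a negative difference held 4.26% to 4.30% in 93-11 HS and 38.4% to 39.1% in 93-11 normal libraries, against 25.3% to 25.4% in Nip HS and 36.8% to 37.1% in Nip normal libraries. The groups did not overlap in either share. Each share is taken within 1 library, but the identifiers were chosen by the same values, as deposited. The shares therefore depend on the scaling through that choice, and the contrast between groups is partly built in by it. The 10 highest identifiers of each library held 14.8% to 15.4% of the sum in 93-11 HS and 7.54% to 7.91% in 93-11 normal libraries, against 10.4% to 10.6% in Nip HS and 9.93% to 10.0% in Nip normal libraries.

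**Figure D4:**
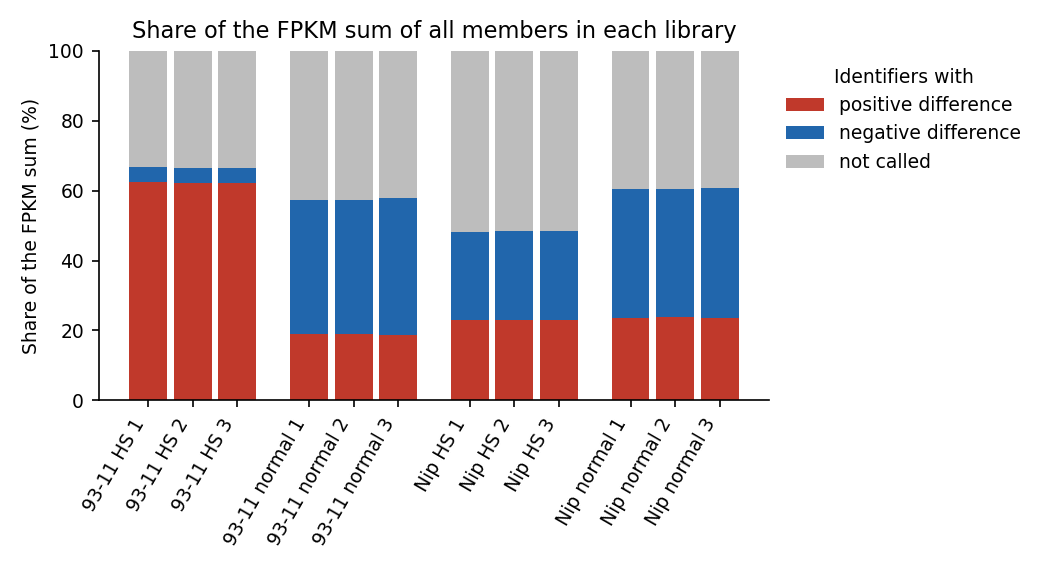
Share of the FPKM sum of all 19296 identifiers (y axis, percent) in each of the 12 libraries (x axis) that fell to identifiers with a positive difference, a negative difference or no call. In the 93-11 HS libraries the identifiers with a positive difference took 62.1% to 62.5% and those with a negative difference 4.26% to 4.30%.

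The shares of positive and negative calls moved with the level of expression in ways that depended on the scaling. Identifiers were split into 5 bins of equal number by their mean FPKM over the 12 libraries. This mean includes the values that make the calls, so a strong rise or fall upon HS also moves the bin of an identifier. An order of the shares by bin can thus be partly built in. Bins set apart from the calls were not tested. From the lowest bin to the highest, 11.8%, 13.9%, 18.3%, 26.1% and 34.1% of the identifiers had a positive call, and the median difference was -0.30, -0.30, 0.02, 0.35 and 0.48. The share of negative calls showed no such order, at 19.9%, 24.6%, 19.8%, 14.7% and 19.2%. With a pseudocount of 0.1 the positive shares of the lowest and the highest bin were 14.5% and 34.4%, with the median ratio 10.2% and 27.9%, and after rescaling to a sum of 1000000 they were 8.24% and 15.3%. Quantile normalization left them at 17.3% and 19.6%, with median differences between -0.13 and 0.05 in every bin. The negative shares of the lowest and the highest bin were 11.8% and 27.8% under quantile normalization, 30.4% and 19.9% with a pseudocount of 0.1, 24.97% and 22.7% with the median ratio, and 43.6% and 35.8% after the rescaling.

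The 2 largest differences in each direction at higher expression came in 2 forms. For LOC_Os11g47520 and LOC_Os05g39990 the gap of 93-11 less Nip in normal growth was -0.46 and 0.63 on the log2 scale. For the other pair the levels in normal growth already lay far apart. By the rule for identifiers without an annotation, the 2 largest in each direction among those called with a mean FPKM of at least 10 are given, all with limma and Benjamini-Hochberg adjustment. LOC_Os11g47520, on chromosome 11, stood at 556.1, 562.9 and 529.1 FPKM in 93-11 HS and 0.370, 0.609 and 0.569 FPKM in 93-11 normal libraries. In Nip it stood at 1.22, 1.15 and 1.085 FPKM upon HS and 1.28, 0.985 and 1.001 FPKM in normal growth. Only the 93-11 HS libraries were high, and the 2 Nip groups overlapped. Its log2 fold change was 8.51 in 93-11 (standard error 0.080, adjusted p = 8.08e-17) and 0.05 in Nip (adjusted p = 0.615), and the difference was 8.46 (standard error 0.11, adjusted p = 2.46e-14).

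LOC_Os05g39990, on chromosome 5, was the counterpart among the negative differences. It stood at 1.61, 1.37 and 1.70 FPKM in 93-11 HS and 92.3, 91.5 and 95.1 FPKM in 93-11 normal libraries, 59.7-fold lower upon HS. In Nip it stood at 111.6, 112.5 and 115.9 FPKM upon HS and 60.0, 59.5 and 60.1 FPKM in normal growth, 1.89-fold higher upon HS. Neither cultivar had overlap between its HS and normal libraries, and HS was the lower in 93-11 and the higher in Nip. The difference was -6.11 (standard error 0.067, adjusted p = 9.73e-15), made of log2 fold changes of -5.20 in 93-11 and 0.91 in Nip.

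In the other pair the cultivars already stood far apart in normal growth. LOC_Os12g14440, on chromosome 12, stood at 13.7, 11.5 and 8.77 FPKM in 93-11 HS and 37.6, 37.6 and 37.9 FPKM in 93-11 normal libraries, and in Nip at 3.66, 5.15 and 8.71 FPKM upon HS and 10075, 10127 and 10109 FPKM in normal growth. Only the Nip normal libraries were high. It was downregulated in both cultivars, and its difference of 8.93 (standard error 0.29, adjusted p = 1.92e-11) is a smaller fall in 93-11. The gap of 93-11 less Nip in normal growth was -8.03 on the log2 scale, larger in size than for 99.9% of identifiers. LOC_Os10g26940, on chromosome 10, stood at 62.5, 65.6 and 63.4 FPKM in 93-11 HS and 125.8, 138.2 and 138.4 FPKM in 93-11 normal libraries, and in Nip at 620.1, 607.9 and 608.5 FPKM upon HS and 1.38, 1.33 and 1.12 FPKM in normal growth. Here the Nip normal libraries alone were low. Its difference was -9.13 (standard error 0.071, adjusted p = 4.34e-16), with a normal level 5.89 above that of Nip. Whether an identifier stands for the same copy of a gene in both genomes, or shares reads with a near-identical copy in one of them, was not tested.

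The identifiers that ranked 3rd to 10th differed in shape between the directions, as positive ones mostly rose in 93-11 and negative ones mostly moved in both cultivars. The 8 positive ones had differences of 6.79 to 8.08, and 6 of them were upregulated in 93-11, with 1 upregulated and 3 downregulated in Nip. The 8 negative ones had differences of -5.66 to -5.05, and 7 of them were downregulated in 93-11, with 6 upregulated in Nip. A gap of at least 1 between the cultivars in normal growth was present for 6 of the 8 in either direction. All 8 in each direction were called in that direction under all 4 scalings.

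LOC_Os02g35500, the glyoxylate reductase gene on chromosome 2, fell in both cultivars and more so in 93-11. Glyoxylate reductases convert glyoxylate to glycolate and so remove a reactive product of photorespiration. The gene stood at 9.74, 8.72 and 9.65 FPKM in 93-11 HS and 51.1, 53.1 and 55.2 FPKM in 93-11 normal libraries, and in Nip at 23.3, 21.3 and 23.9 FPKM upon HS and 67.6, 66.3 and 61.8 FPKM in normal growth. In each cultivar every HS library was below every normal library. The difference of -0.91 (standard error 0.083, adjusted p = 4.13e-07, limma) was short of the size of 1, so that the gene is not among the 7811. A more negative difference was found for 22.0% of all identifiers. The difference was -1.17 with the median ratio, -1.03 with quantile normalization and -1.84 after rescaling to a sum of 1000000, past the size of 1 under each.

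**Figure D5:**
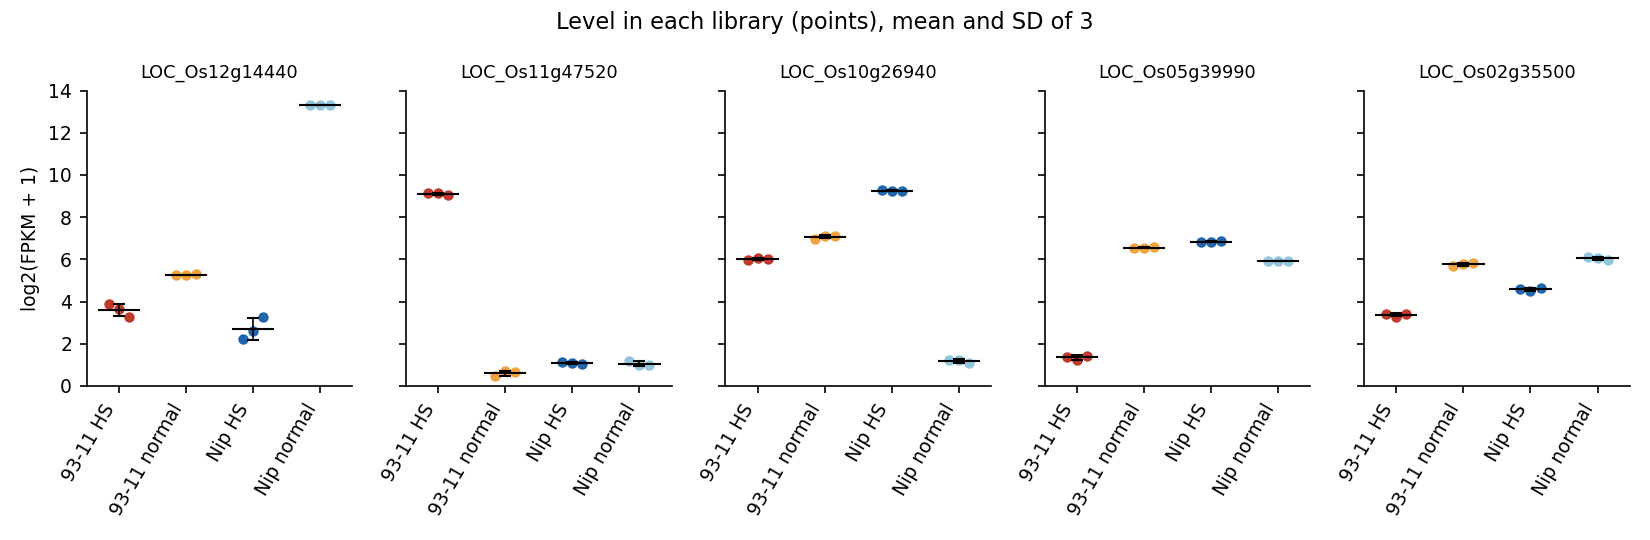
Level of the 5 identifiers given by name in each of the 12 libraries, as log2(FPKM + 1) (y axis), by group (x axis); points are libraries, and bars give the mean and SD of 3. LOC_Os11g47520 is high only in 93-11 HS (529.1 to 562.9 FPKM), LOC_Os05g39990 is low only there (1.37 to 1.70 FPKM), and LOC_Os12g14440 is high only in Nip normal.

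The differences were spread over all 12 chromosomes. A LOC_Os identifier holds the number of its chromosome and, after the letter g, a number that follows the order of the genes along it in the rice annotation. The share with a positive call lay between 18.2% on chromosome 4 and 22.7% on chromosome 6, and the share with a negative call between 18.4% on chromosome 8 and 20.5% on chromosome 10, close to the 20.8% and 19.6% over all identifiers. Neighbours, taken as successive identifiers no more than 50 apart in number, formed 16886 pairs. After an identifier with a positive call, the next one had a positive call in 26.2% of cases, against 20.9% over all pairs, and a negative call in 16.2%. After a negative call, the next one was negative in 23.5% of cases, against 19.6% over all pairs. Across the pairs, Pearson's r of the difference was 0.11, as a description of genes that share their libraries.

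Runs of at least 5 neighbours with the same call were found 18 times for positive differences (99 identifiers) and 5 times for negative ones (27 identifiers). The longest was a run of 8 positive differences on chromosome 1, of 1.24 to 7.82, in which 6 identifiers were upregulated in 93-11 and none in Nip, and 4 of the 8 were called under all 4 scalings. The run of highest expression, 5 identifiers on chromosome 1, had a median level of 3250 FPKM in 93-11 HS and 214.9 FPKM in 93-11 normal libraries, against 263.7 FPKM in Nip HS and 182.3 FPKM in Nip normal libraries, with differences of 1.99 to 3.03. All 5 were upregulated in 93-11 and 1 in Nip, and 3 of the 5 were called under all 4 scalings. Of the negative runs, 6 identifiers on chromosome 7 had differences of -3.02 to -1.10 and a median level of 0.514 FPKM in 93-11 HS and 8.53 FPKM in 93-11 normal libraries, against 7.22 FPKM in Nip HS and 10.8 FPKM in Nip normal libraries. All 6 were called under all 4 scalings, and 5 were downregulated in 93-11 and 4 in Nip. The other negative run of 6 identifiers, on chromosome 9, had differences as low as -4.65. Of these 6, 3 were called under all 4 scalings, and 5 were downregulated in 93-11 and 1 in Nip. Neighbouring copies of a gene can share reads, and the part of this in the runs was not tested. How many runs the shares of positive and negative calls alone would give was not tested either.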

How the data were processed

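Total RNA of aerial parts was selected for poly(A), made into stranded libraries and sequenced by the authors, who deposited 1 FPKM value per gene and library. Per the methods, reads were aligned to the genome of each cultivar with STAR and counted with featureCounts, and expression was given as FPKM; the processing notes of the authors name HISAT2 2.0.4, StringTie 1.3.4d and DESeq2. The genome builds are not given in the sources used here. Read depth could not be taken from the files: a shared step among low values was held by 1.01% to 5.83% of low identifiers only.

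The members and tests were chosen with earlier results of these data known. LOC_Os identifiers shared by both cultivars that reached 1 FPKM in 3 or more libraries were fitted as 4 group means on log2(FPKM + 1) with limma 3.58.1 (R 4.3.3, trended prior) over all 12 libraries. The interaction of cultivar and treatment was tested, with Benjamini-Hochberg adjustment over all 19296 identifiers. Calls needed an adjusted p under 0.01 and a size of at least 1, as in the authors' thresholds. The log2 scale with a pseudocount of 1 understates changes of low genes. Among 100 simulated differences of 1.5 the fit recovered 98, among 100 of 3 it recovered all 100, and 2 of the unchanged identifiers were called. The simulation used normal noise of the fitted spread and changed only identifiers with a mean log2(FPKM + 1) above 1. It held no shift in scaling between libraries, so it does not give the error rate of the calls in the real data.

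Identifiers given by name were the 2 with the largest called difference in each direction at a mean FPKM of at least 10, and the one that the study names. Gene lists drawn from general knowledge were not used, because the reference table pairs no LOC_Os identifier with a name or function. Alternatives were other pseudocounts, filters, scalings and thresholds, a replicate block, no trended prior, and each library left out. Figures and summaries were made with Python 3.11.15.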

Additional observations from a re-analysis of the deposited data

Results flagged for a closer look

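For 7811 identifiers the interaction of cultivar and HS was called (limma). Of the identifiers given by name, 4 were among them, with a difference of 8.93 for LOC_Os12g14440, 8.46 for LOC_Os11g47520, -9.13 for LOC_Os10g26940 and -6.11 for LOC_Os05g39990. For LOC_Os02g35500 the difference of -0.91 had an adjusted p of 4.13e-07 (limma) and was under the size of 1, so that it was not called.

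LOC_Os identifiers listed for 1 cultivar only took part in no comparison. Of the 4725 listed for 93-11 only, 1981 passed the filter on FPKM. Of the 4725, 194 had an FPKM of at least 1 in every HS library and under 1 in every normal library. A mean of at least 10 FPKM upon HS was reached by 31 of these, and the highest was 1015 FPKM. Of the 3483 listed for Nip only, 1525 passed the filter and 102 had this pattern. Of these, 7 reached a mean of 10 FPKM upon HS, and the highest was 146.5 FPKM. The share of this pattern among the shared identifiers is not given here, so the counts are a description.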

How the results depend on the processing

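Of 221 values under alternatives, 209 kept their direction and their side of the threshold, or as counts stayed within 1.5 times the main count. None reversed, but a count has no direction to reverse. With values rescaled to sum to 1000000, 1764 differences were positive and 8075 negative. In the test against a difference of 1 (treat), 4712 identifiers were called, 2577 positive and 2135 negative, and 3063 were called for HS against normal in Nip. LOC_Os02g35500, not called as deposited, was called at -1.84 with values rescaled to sum to 1000000, at -1.03 with quantile normalization and at -1.17 with the median ratio. Without a minimum size, 13678 identifiers were called, 7161 positive and 6517 negative. Leaving out each library in turn gave 7774 to 7837 calls, 3989 to 4039 positive and 3753 to 3823 negative, 9045 to 9137 calls within 93-11 and 4995 to 5046 within Nip. It gave differences of 8.68 to 9.21 for LOC_Os12g14440, 8.39 to 8.51 for LOC_Os11g47520, -9.18 to -9.08 for LOC_Os10g26940, -6.15 to -6.06 for LOC_Os05g39990 and -0.96 to -0.86 for LOC_Os02g35500.

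Samples with the same replicate number did not deviate together, with r between -0.043 and 0.068 for 18 same-numbered pairs of libraries and between -0.050 and 0.061 for 36 others, so the numbers were not taken as pairs. With the replicate block, 4026 differences were positive and 3789 negative. The alternatives for the counts within each cultivar, and treat for single identifiers, were added after seeing the data. The alternatives set for gene lists were not run, since no list could be tied to the identifiers.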

Other observations

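The identifiers below the filter had a median of 0.513 for their highest FPKM in any library, a level at which a pseudocount of 1 leaves most of them little room to reach a size of 1. In a fit without the filter, 26 of these 4103 identifiers had a positive and 36 a negative call, and the difference of all 4103 ranged from -1.76 to 2.17. Among identifiers just inside the filter, with an FPKM of at least 1 in exactly 3 libraries, 421 of 872 were called, against 49 of 396 with exactly 2 such libraries. An identifier with exactly 3 such libraries can pass through 1 group alone, so that a high share of calls is built into this edge of the filter.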
